A study of Oryzias latipes with 2 samples.

Results

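*pomca* (ENSORLG00000025908) is 1 gene of the 18377 listed for the female and 18660 for the male library, and its row was followed through every annotated cell type, as all UMIs and as exon, intron and spanning UMIs. It encodes proopiomelanocortin, a precursor that is cut into different hormones in different cells. In corticotropes of the rostral pars distalis the product is mainly Acth, which drives the steroid-making tissue of the interrenal gland. In melanotropes of the pars intermedia Acth is cut further to α-Msh, which in fish is best known for dispersing pigment.

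The data are single-cell RNA-seq (scRNA-seq) of the pituitary of adult medaka (*Oryzias latipes*), with 1 library from 24 pooled females and 1 from 23 pooled males. All fish were about 8 months old and of the d-rR lhb:GFP line, whose GFP is under the promoter of *lhb*. Unique molecular identifiers (UMIs) count captured RNA molecules. The female library holds 2592 cells with 11750195 UMIs (median 3757.5 per cell, range 138 to 44871) and the male library 3804 cells with 17691130 UMIs (median 3421.5, range 138 to 101151). With 1 library for each sex, sex and library cannot be told apart, no test was made, and all intervals are exact 95% intervals that cover counting error only. The libraries share 16 cell barcodes, and 0 of them belong to a melanotrope or corticotrope.

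The annotation of cell types is the deposited one, which rests on clusters of these same cells, so that *pomca* is high in its own types is not a finding. Of the markers listed for both types, the identifiers at hand cover only *pomca* and *tph1*, and the labels were not otherwise checked. *tph1*, which encodes the enzyme that starts serotonin synthesis, had a UMI in 79.6% of female and 81.1% of male melanotropes and in 24.0% and 23.6% of corticotropes.

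By number of UMIs, *pomca* ranked 4 among all genes in females and 3 in males. Its UMIs numbered 369639 in females, 3.15% of the library, and 772005 in males, 4.36% of the library, which is 1.39 times the female share. Melanotropes and corticotropes together are 79 female cells (3.05% of all cells) and 108 male cells (2.84%). These few cells hold 93.1% of the *pomca* UMIs in females and 92.4% in males.

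Melanotropes gave the highest share of their UMIs to *pomca*. In the 54 female melanotropes the gene took 57.4% of UMIs (305408 of 532421, interval 57.2 to 57.5%), and the lowest, median and highest cell had 20.0%, 59.4% and 82.9%. In the 53 male melanotropes it took 62.6% (610355 of 974313, 62.5 to 62.7%), and the lowest, median and highest cell had 1.83%, 64.3% and 88.5%. The gene was over 50% of the UMIs in 41 female and 42 male melanotropes.

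Corticotropes had a lower share in both libraries. In the 25 female corticotropes *pomca* took 26.1% of UMIs (38745 of 148305, interval 25.9 to 26.3%), with 13.9%, 26.0% and 39.2% in the lowest, median and highest cell. In the 55 male corticotropes it took 26.2% (103107 of 393868, 26.0 to 26.3%), with 6.96%, 25.4% and 55.1%. A single male corticotrope and no female one was over 50%.

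The share in melanotropes was 2.20 times that in corticotropes in females (interval 2.17 to 2.22) and 2.39 times in males (2.38 to 2.41). The cells of the types overlap: 6 of 54 female and 15 of 53 male melanotropes lie below the highest corticotrope of their sex. Because *pomca* is so large a part of the total, its share cannot rise in proportion to its RNA. Counted per UMI of all other genes, *pomca* was 1.35 in female melanotropes and 0.354 in female corticotropes, a ratio of 3.804. In males it was 1.68 and 0.355, a ratio of 4.73.

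**Figure D1:**
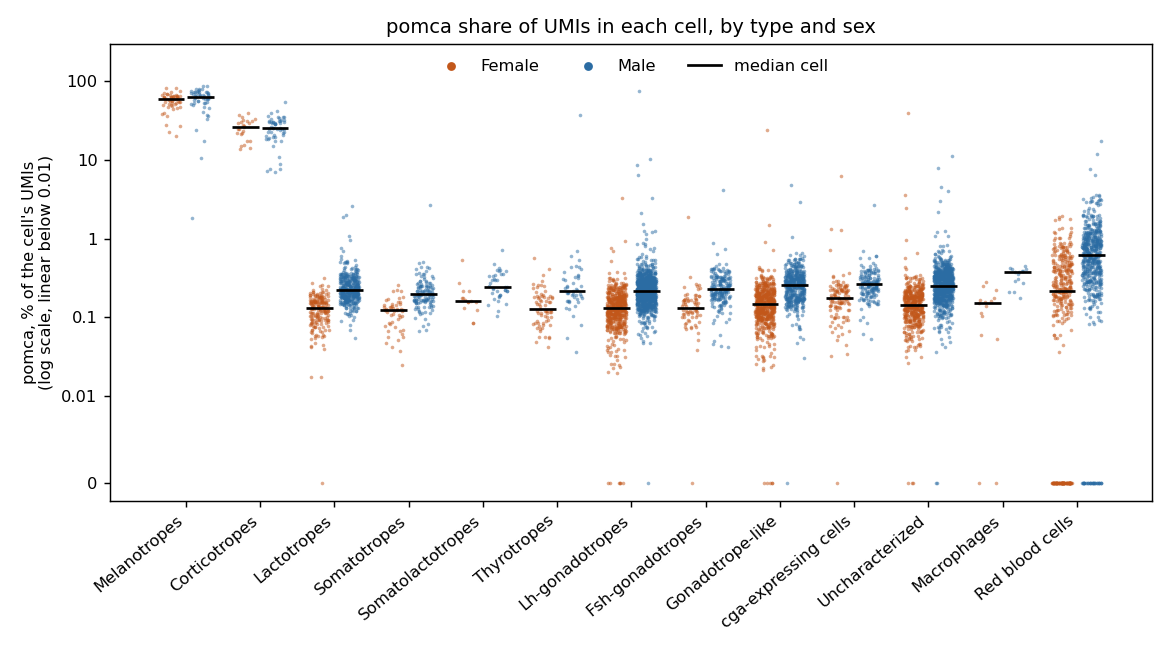
Each point is a cell, placed by its annotated type and by *pomca* as a percentage of its UMIs on a log scale that is linear below 0.01, with females in orange, males in blue and a black bar at the median cell. Medians are 59.4% and 64.3% in melanotropes and 26.0% and 25.4% in corticotropes, and the male median lies above the female one in each of the 11 other types.

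Between the libraries, corticotropes had nearly the same share, and melanotropes a slightly higher one in males. The male share over the female share was 1.002 in corticotropes (interval 0.990 to 1.01) and 1.09 in melanotropes (1.09 to 1.10). The direction in melanotropes changed when deep cells were left out. Depth here is the total of all UMIs, *pomca* included, so this cut also selects in part on *pomca* itself. Leaving out cells beyond percentile 95 of their library removes 35 of the 53 male and 16 of the 54 female melanotropes, since these cells are deep as a type. Over the 18 male and 38 female cells left the ratio turned to 0.970, with 54.7% in males and 56.4% in females. Over all tested genes, 4.29% were more than 2-fold higher and 17.6% more than 2-fold lower in male than in female melanotropes. In corticotropes these shares were 9.59% and 9.85%. All UMIs were the total here, *pomca* included, and the shares were not computed with *pomca* left out.

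In melanotropes the number of *pomca* UMIs in a cell differed more between the libraries than its share did. A female melanotrope held a mean of 5656 *pomca* UMIs and a male one 11516, a ratio of 2.04. The median melanotrope held 4878.5 in females and 10682 in males, the same order. The corticotrope means were 1550 in females and 1875 in males, a ratio of 1.21. The median corticotrope went the other way, with 1362 in females and 1287 in males. The highest male corticotrope held 11304 *pomca* UMIs, so no higher number in male corticotropes is read from the means. Male melanotropes were also the deepest cells of the 4 groups. Their median total was 18325 UMIs, against 9160.5 in female melanotropes, 5350 in female and 4906 in male corticotropes. With *pomca* left out, the median number of UMIs was 5843 in male and 3566.5 in female melanotropes, and 3661 in male and 3901 in female corticotropes. More RNA in a cell and a better captured cell cannot be told apart here.

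**Figure D2:**
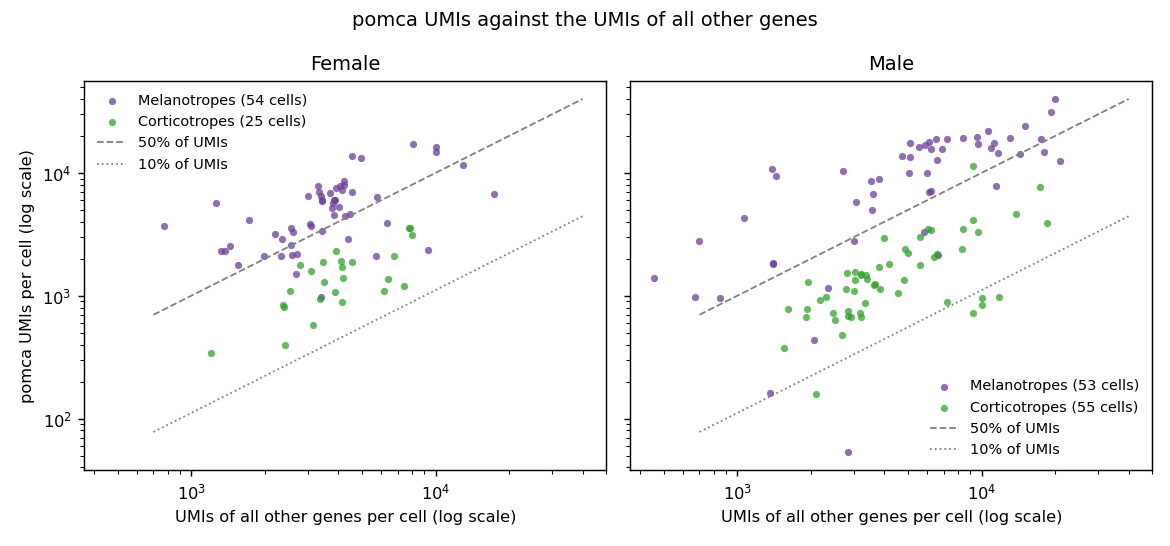
*pomca* UMIs of each melanotrope (purple) and corticotrope (green) against the UMIs of all its other genes, both on log scales, with lines at 50% and 10% of UMIs. Most melanotropes lie above the 50% line in both sexes, and 5 male corticotropes and 1 male melanotrope lie below the 10% line.

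How the share of *pomca* varied with depth within a type depends on the measure. With the UMIs of other genes, the Spearman correlation over cells was -0.17 in the 54 female and -0.20 in the 53 male melanotropes, and -0.05 and -0.08 in the 25 and 55 corticotropes. The Pearson correlation with their log10 was stronger in female melanotropes, at -0.39, and was -0.08 in male ones. By total UMIs, which include *pomca*, the deeper melanotropes had the higher share. Medians were 63.6% in 27 deeper and 54.1% in 27 shallower female cells, and 66.8% in 27 and 58.8% in 26 male cells. Female corticotropes went the same way, with 29.2% in 13 deeper and 23.6% in 12 shallower cells. Male corticotropes did not, with 25.3% in 28 deeper and 26.6% in 27 shallower cells. These are descriptions, and both measures come from the same cell and share its depth.

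A few members stand apart. The male melanotropes with the least *pomca* had 1.83%, 10.5% and 17.6% of their UMIs from it (53, 160 and 438 UMIs). These 3 cells had 0 UMIs of *crhbp*, *oacyl* and *tph1*, which most male melanotropes express, but 14, 0 and 3 UMIs of *mt2*, which was also higher in melanotropes. They had 0 UMIs of the corticotrope genes *pde6ha* and *kctd12.1*, but 2, 4 and 12 UMIs of *arrdc3a*, which was also higher in corticotropes. They were shallow for male melanotropes, with 2903, 1522 and 2494 UMIs in all. At the other end, the male corticotrope at 55.1% held 11304 *pomca* UMIs of 20534. It had 23 UMIs of *crhbp*, 10 of *oacyl*, 160 of *mt2* and 12 of *tph1*. Of the corticotrope genes it had 15 UMIs of *kctd12.1* and 9 of *pde6ha*, but 0 of *arrdc3a*, which 90.9% of male corticotropes had. It thus carried genes of both types. These cells were picked after their values were seen.

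Male corticotropes also include 5 cells under 10%, at 6.96% to 8.81%. Of these, 3 had 1.40%, 3.11% and 6.80% of their UMIs from *lhb*, the Lh subunit gene, and 1 had 5.96% from *sl*, the somatolactin gene. These 4 cells had 9974 to 12810 UMIs, from percentile 92.2 of the library upwards, and the remaining cell had 2257. Whether such cells are doublets was not tested. The files hold the cells that remained after the authors had removed those with the highest doublet scores.

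Cells with *pomca* at or above 10% of UMIs were nearly all in these types. In females all 79 cells of both types reached this level (exact interval 95.4 to 100%), and 2 of 2513 other cells (0.0796%, 0.00964 to 0.287%). In males 102 of 108 did (94.4%, 88.3 to 97.9%), and 6 of 3696 others (0.162%, 0.0596 to 0.353%). These 2 and 6 cells hold 33.3% and 26.8% of all *pomca* UMIs outside the types, so sums over other types turn on them.

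Among them, a male thyrotrope had 13105 *pomca* UMIs of 35112 (37.3%) together with 5.85% from *prl*, the prolactin gene, at percentile 99.6 of depth. A cell annotated as a male Lh gonadotrope had 1289 of 1683 (76.6%), with *gh* as its next hormone gene at 0.178%. Another had 977 of 9522 (10.3%) with 3.51% from *lhb*. In males the others were 1 uncharacterized cell at 11.2% (258 of 2307) and 2 red blood cells at 17.2% and 11.9%, which rest on 57 of 331 and 21 of 176 UMIs. In females they were a gonadotrope-like cell at 24.2% (2084 of 8620) and an uncharacterized cell at 39.3% (6395 of 16286), neither with another hormone gene above 0.190%.

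Nearly every other cell also held a few *pomca* UMIs. The share of cells with at least 1 UMI ran from 76.0% to 100% over the 11 other types in females and from 94.1% to 100% in males, and from 85.7% to 100% and from 96.9% to 100% once each cell was thinned to 2200 UMIs. Thinning left out 537 female and 841 male cells that were shallower. The low of 85.7% is that of female red blood cells, of which only 21 of 371 remained. Of the female macrophages 4 of 15 remained. The level was far below that of melanotropes and corticotropes. The median cell of a type had 12.2 *pomca* UMIs per 10000 in female somatotropes, the lowest type, and 21.8 in female red blood cells, the highest. In males the same types were lowest and highest, at 19.6 and 61.2, and macrophages came next to the highest at 37.6. Red blood cells under 500 UMIs had 36.9 *pomca* UMIs per 10000 in females and 99.9 in males when summed, against 18.9 and 45.5 in deeper ones. The median over types was 14.4 per 10000 in females and 24.1 in males, a ratio of 1.68, beside the ratio of 1.39 between the libraries' shares of *pomca*.

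A gene with a like abundance but another source gives the scale for these values. In the 10 types named for neither hormone, and without cells in which *pomca* or *prl* reached 5% of UMIs, the number of *pomca* UMIs per *prl* UMI was 0.661 to 1.11 in females (median 0.981) and 1.10 to 1.58 in males (median 1.42). The lowest ratio was that of the uncharacterized cells in both sexes. Without those cells, the male ratio ran from 1.30 in thyrotropes to 1.58 in Fsh gonadotropes (interval 1.49 to 1.68), beside an interval of 1.40 to 1.48 in Lh gonadotropes. A single male Fsh gonadotrope under the 5% cut held 272 of the 2774 *pomca* UMIs counted for its type. The 2 gonadotrope types were not compared without it, so no difference between them is read from these intervals. The female ratio ran from 0.706 in the 15 macrophages, which rests on 48 *pomca* UMIs, to 1.11 in *cga*-expressing cells. Levels of this size were not read as expression, and their source was not tested. Against the highest type median, the median melanotrope was 272 times higher in females and 105 times in males, and the median corticotrope 119 and 41.6 times. That type is the red blood cells, whose median cell held only 1 *pomca* UMI in females and 3 in males. Their median totals were 518 and 503 UMIs, so these ratios are coarse.

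Sums over a type can differ far from its median cell. Male thyrotropes gave 550 *pomca* UMIs per 10000 when summed (interval 541 to 559) and 24.2 without the single cell named above, which held 96.2% of the *pomca* UMIs of its type. Female uncharacterized cells gave 47.8 and, without 1 cell, 16.4.

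**Figure D3:**
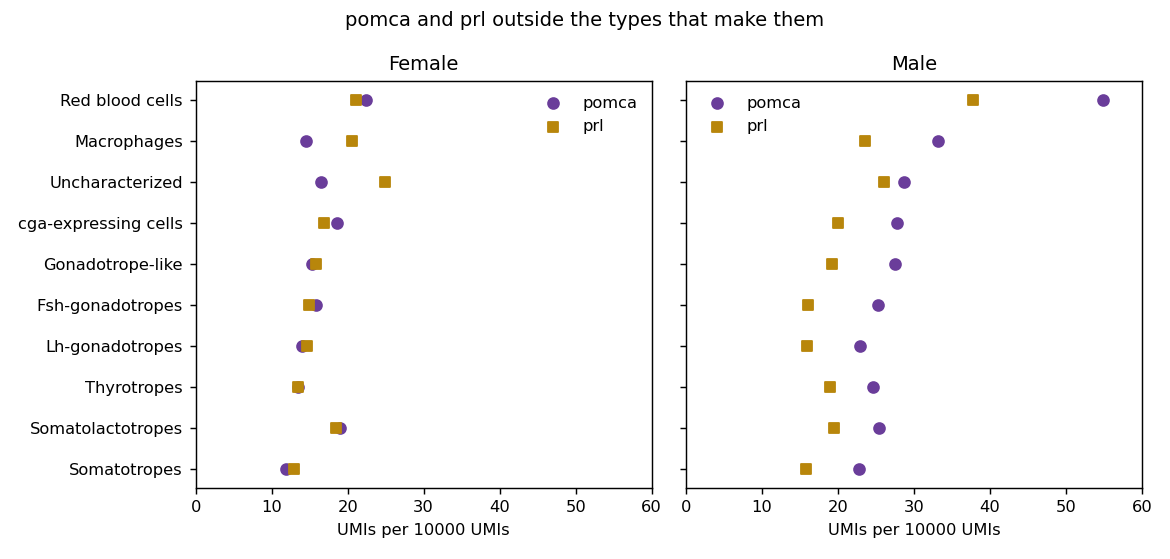
*pomca* (purple circles) and *prl* (yellow squares) as UMIs per 10000 UMIs, summed over the cells of each of 10 types named for neither, without cells at or above 5% of either gene. *pomca* runs from 11.9 to 22.4 in females and from 22.8 to 54.8 in males, and lies above *prl* in all 10 male types.

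Intron UMIs mark RNA that is not yet spliced, or priming inside an intron. They were rare for *pomca*, with 176 beside 368252 exon UMIs in females and 213 beside 770337 in males, and they made up a larger part in corticotropes than in melanotropes. As a percentage of intron plus exon UMIs, introns were 0.0394% in female melanotropes (120 UMIs, interval 0.0327 to 0.0471%) and 0.0802% in female corticotropes (31 UMIs, 0.0545 to 0.114%). In males they were 0.0120% (73 UMIs, 0.00939 to 0.0151%) and 0.0932% (96 UMIs, 0.0755 to 0.114%). The intron to exon ratio of corticotropes was 2.04 times that of melanotropes in females (1.33 to 3.04) and 7.79 times in males (5.68 to 10.7). Without the deepest cells, which leaves 18 male melanotropes, the male ratio was 3.08. With spanning UMIs counted as intron UMIs the ratios were 1.13 and 1.57.

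The intron to exon ratio in females was 3.29 times that in males in melanotropes (2.44 to 4.46) and 0.860 times in corticotropes (0.555 to 1.30). The value for melanotropes fell to 1.54 without the deepest cells and to 1.81 with spanning UMIs counted as intron UMIs. No intron UMI was found in 9 of 54 female and 29 of 53 male melanotropes, or in 12 of 25 and 26 of 55 corticotropes. In the 11 other types the intron percentage was 0.0983% and 0.0752%, with intervals that overlap those of corticotropes.

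The scale decides what these intron counts show. Per 10000 UMIs of all other genes, *pomca* introns were 5.29 in female melanotropes and 2.83 in female corticotropes, and 2.01 and 3.30 in males. The corticotrope value was thus 0.535 times the melanotrope value in females (interval 0.348 to 0.8001) and 1.65 times in males (1.20 to 2.26). The female order is therefore the reverse of that per exon UMI, and the male order is the same.

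**Figure D4:**
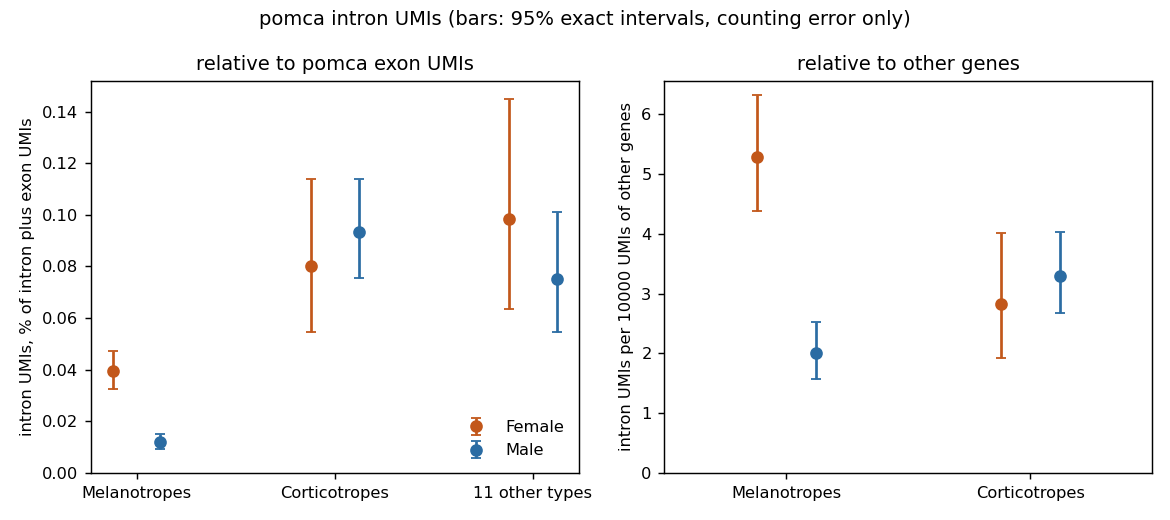
*pomca* intron UMIs as a percentage of intron plus exon UMIs (left) and per 10000 UMIs of all other genes (right), with exact 95% intervals for counting error. Melanotropes lie lowest on the left at 0.0394% and 0.0120%, and on the right the female value of 5.29 is the highest and the male value of 2.01 the lowest.

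For comparison, intron percentages of other hormone genes in their own types ran from 0.0068% for *prl* to 0.207% for *lhb* in females, and from 0 of 15984 for *sl* to 0.158% for *lhb* in males. All genes but *pomca* had 17.1% and 17.4% intron UMIs in female melanotropes and corticotropes, and 13.6% and 16.04% in male ones. Genes with at least 1000 exon UMIs over both types combined numbered 53 in females and 100 in males. Of these, 30 and 42 had a lower intron percentage than *pomca*, which stood at 0.0440% and 0.0237%. Among the lower genes, 29 and 40 had 0 intron UMIs. In a gene near the cut, a single intron UMI already gives a higher percentage than that of *pomca*. Such a gene can only lie at 0 or above *pomca*, so these counts do not place the intron level of *pomca* among other genes. What a spanning UMI covers is not given with the data. Spanning UMIs of *pomca* were 0.206% and 0.196% of spanning plus exon UMIs in female melanotropes and corticotropes, and 0.124% and 0.119% in male ones. The types thus did not differ there beyond counting error.

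Since *pomca* takes up most of a melanotrope's UMIs, it lowers the share of every other gene there, and other genes are given per 10000 UMIs of genes other than *pomca*. With all UMIs as the total, 9.55% of 3886 female genes were more than 2-fold higher in melanotropes and 39% more than 2-fold lower, and in males 5% and 49.7% of 5424. With *pomca* out of the totals these became 19.4% and 13.6% in females and 15.4% and 14.1% in males. The median fold moved from -0.71 to 0.09 on the log2 scale in females and from -0.98 to -0.002 in males. The alternative was added after this shift had been seen.

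Within that background, 3 genes that the authors' table lists for melanotropes were far higher in them. *crhbp*, which encodes the binding protein of the hypothalamic hormone Crh, had 60.1 UMIs per 10000 in female melanotropes and 0.0913 in female corticotropes, the latter from 1 UMI (ratio 659, interval 118 to 26039). In males it had 59.2 and 1.13, a ratio of 52.2 (37.0 to 76.0). Of the 33 male corticotrope UMIs, 23 came from the cell at 55.1% *pomca* described above. *mt2*, a metallothionein gene, had 235 against 20.2 in females and 290 against 25.4 in males. *oacyl* had 33.9 against 0.456 and 32.5 against 0.757.

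In the opposite direction, *kctd12.1* had 163 UMIs in female corticotropes, 14.9 per 10000, and 0 in female melanotropes. At a floor of 3 UMIs over the type, 0.132 per 10000, this makes it 113-fold higher. The exact upper limit for the 0 UMIs is larger, at 0.162 per 10000, so the bound is lower on that measure. In males it had 22.0 against 0.0550 from 2 UMIs, a ratio of 401 (110 to 3315). *pde6ha*, a subunit gene of a phosphodiesterase known from photoreceptors, was 64.6 times higher in female and 61.1 times in male corticotropes. *arrdc3a*, an arrestin family gene, was 7.80 and 8.01 times higher. These genes come from a table the authors built on the male cells. The types of both sexes rest on clusters of these same cells, so the values of both sexes are a description. The names were taken up after values had been seen.

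Summed over cells, *tph1* differed less between the types. It had 21.2 UMIs per 10000 in female melanotropes and 7.48 in female corticotropes, and 14.4 and 6.98 in males. The median corticotrope had 0 *tph1* UMIs in both sexes. The 3 highest cells held 96.3% of the *tph1* UMIs of female corticotropes and 47.8% of those of male ones. *rpl7*, a ribosomal protein gene, was lower in melanotropes on this scale, with 59.6 against 78.9 in females and 57.0 against 84.2 in males.

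**Figure D5:**
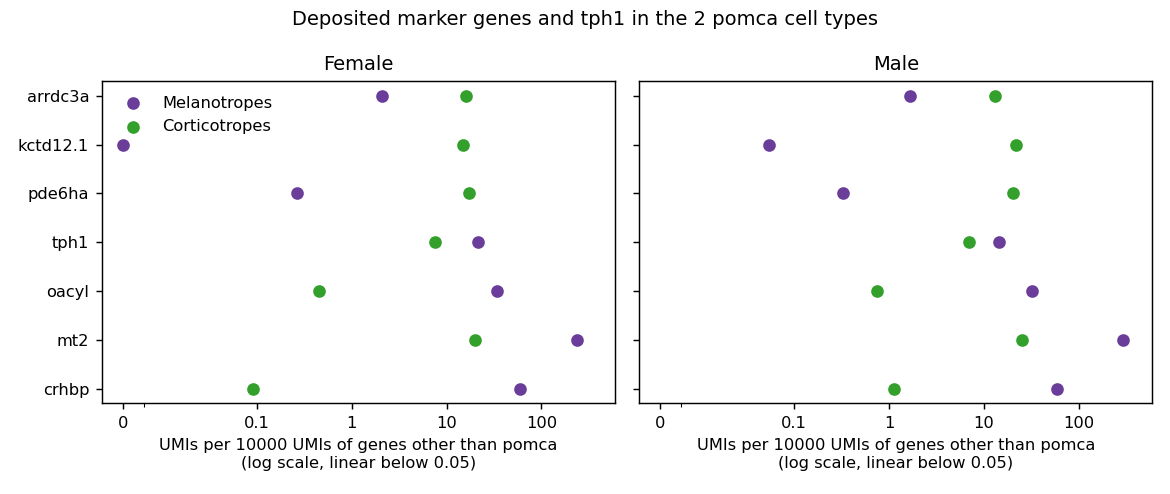
UMIs per 10000 UMIs of genes other than *pomca* for 7 genes in melanotropes (purple) and corticotropes (green) of each sex, on a log scale that is linear below 0.05. *crhbp*, *mt2*, *oacyl* and *tph1* lie higher in melanotropes and *pde6ha*, *kctd12.1* and *arrdc3a* in corticotropes, in both sexes.

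Among male melanotropes, cells with more *pomca* also had more of the melanotrope genes per UMI of other genes. The Spearman correlation over the 53 cells was 0.65 for *crhbp*, 0.64 for *oacyl*, 0.59 for *mt2* and 0.59 for *tph1*. Over the 54 female cells it was 0.62 for *oacyl*, and 0.23, 0.26 and 0.22 for the other genes. Over corticotropes, none of these 4 genes went above 0.17 in either sex, and *tph1* was at -0.34 in females. Among male melanotropes, the 4 cells without *crhbp* had a median of 14.0% *pomca* and the 5 without *oacyl* 17.6%. The part of such cells in the male values was not tested. The cells share a library and the genes of a cell share its depth, so these are descriptions.

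The level of other hormone genes in these types depends on the scale. Per 10000 of all UMIs, *prl* had 13.4 and 14.6 in the median female melanotrope and corticotrope, and 15.6 and 14.8 in the median male ones. Summed and per 10000 UMIs of genes other than *pomca*, it had 33.2 and 19.5 in females and 43.3 and 21.1 in males. *lhb* had 70.8 per 10000 of all UMIs when summed over male melanotropes, while their median cell had 15.5. In that type 7 of 53 cells had over 1% of UMIs from *lhb*, and their median total was 32754 UMIs. The part of such cells in the results above was not tested, apart from the alternative without the deepest cells. The 3 haemoglobin genes named in the deposited tables ran from 0.337 to 2.79 per 10000 of all UMIs over the 4 groups. Per 10000 UMIs of genes other than *pomca* they ran from 0.456 to 7.47.

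Over the 13 types of both sexes, 26 points that share libraries by sex, the gene with the level most like that of *pomca* was ENSORLG00000023463, with a Pearson correlation of 0.84 on log2(CPM + 1), followed by ENSORLG00000001239 at 0.82. *tph1* stood at rank 3 with 0.79, *oacyl* at rank 4 with 0.78, and the gene at rank 10 had 0.69. The median over 819 genes was -0.19, and *crhbp* stood at rank 16 with 0.55. The deposited tables name only 2 of these 10 genes. With ranks in place of levels 6 of the 10 were kept, and with no filter on low genes 4. The filter asks for UMIs in melanotropes and corticotropes, where *pomca* is high.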

How the data were processed

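The scRNA-seq files hold raw UMI counts per gene and cell, which the authors deposited without normalization, together with exon, intron and spanning UMI count tables, and a total, a cluster and a cell type for each cell. The submitters' processing notes name Cell Ranger and Seurat, and the genome build, the annotation used for counting and the way the 3 classes of UMI were made are not given there. The sums over genes equal the deposited totals in all 2592 and 3804 cells, the cells left after the authors' quality control and doublet removal. Of the *pomca* UMIs, 0.171% in females and 0.0918% in males are in neither the exon nor the spanning table. In males 1 cell with a variant spelling was joined to the Lh gonadotropes.

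*pomca* UMIs were summed by type and sex and divided by all UMIs, or by the UMIs of other genes. Shares have exact Clopper-Pearson and sums exact Poisson 95% intervals, and no test was made. The intervals leave out the variation between fish and between libraries. Intron percentages use intron over intron plus exon UMIs. Cells were thinned to 2200 UMIs where stated. Folds between types used genes with at least 10 UMIs and a call past 2-fold, and likeness to *pomca* used genes with at least 50 UMIs over both types in each sex and a pseudocount of 1 CPM.

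The fold and likeness steps were tested on simulated counts. Where *pomca* itself was raised in the simulation, folds scaled to all UMIs called nearly all unchanged genes and missed many changed ones. Folds scaled without *pomca* recovered nearly all of the changed genes, so both scalings are given. The size of the simulated rise was set in advance and not matched to the data. In the data the median log2 fold with all UMIs as the total was -0.71 in females and -0.98 in males, inside the 2-fold cut. The simulated failure is therefore no measure of how many calls in the data are wrong.

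Genes were named from the deposited marker tables and the primer table of the study. The rule for named genes was *pomca*, the other 6 hormone-encoding genes, *rpl7*, the 10 genes most like *pomca* and 4 lists. The lists of processing enzymes, regulators, receptors and the melanocortin system hold 14, 16, 20 and 11 symbols, of which 0 matched an identifier, and they are not analysed here. No coordinates or sequences are given. The fold changes and p-values of the authors' marker tables were not used. The gene and the lists were chosen with earlier results of these data known. The alternatives concern depth, totals, weights and cut-offs. Python 3.11.15, numpy 2.4.6, scipy 1.17.1, pandas 2.3.3 and matplotlib 3.10.9 were used.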

Additional observations from a re-analysis of the deposited data

Results flagged for a closer look

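*pomca* intron UMIs per UMI of other genes had the opposite order in the 2 libraries. The level in corticotropes was 0.535 times that in melanotropes in females (interval 0.348 to 0.8001) and 1.65 times in males (1.20 to 2.26). The difference between the sexes was not tested, because each sex is 1 library. The male melanotropes that enter it were deeper than the female ones, with medians of 18325 and 9160.5 UMIs, and the part of depth was not tested.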

How the results depend on the processing

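Each sex is 1 library, so values were judged against counting error alone, which is narrow, and most alternatives moved them by more. No paired analysis was possible because each sex has a single library. Of 280 values of 49 results under alternatives, 128 stayed within counting error or within 1.5 times a count, 149 moved and 3 reversed. Single types outside melanotropes and corticotropes account for 132 of these values, and 61 of those moved. The cause of each move was not tested unless the alternative itself shows it. Values below are in the order female melanotropes, female corticotropes, male melanotropes, male corticotropes. With exon plus spanning UMIs the *pomca* share was 59.7%, 28.1%, 64.2% and 27.7%. Thinned to 2200 UMIs it was 56.5%, 25.8%, 60.8% and 25.7%. As a mean over cells it was 56.6%, 25.7%, 59.9% and 25.6%. Without the cells above the 95th percentile of depth, a total that includes *pomca*, it was 56.4%, 24.9%, 54.7% and 25.003%. With the other hormone genes out of the total it moved to 57.6% in female melanotropes, 63.3% in male melanotropes and 26.4% in male corticotropes. With only cells at 10% or more it was 62.8% in male melanotropes and 28.7% in male corticotropes. The ratio of melanotropes to corticotropes stayed above 1 in every alternative. It was 2.12 in females and 2.32 in males with exon plus spanning UMIs, 2.26 and 2.19 without the deepest cells, and 3.804 and 4.73 per UMI of other genes, the last added after the data were seen. In males alone it also moved to 2.37 thinned, 2.34 as a mean over cells and 2.19 with only cells at 10% or more. The male to female ratio in melanotropes was 1.08 with exon plus spanning UMIs and 1.08 thinned, 1.06 as a mean over cells, 1.10 with other hormone genes out, 1.25 per UMI of other genes, and reversed to 0.970 without the deepest cells. In corticotropes it was 0.986 with exon plus spanning UMIs and 1.10 with only cells at 10% or more. With spanning UMIs as intron UMIs the intron percentage was 0.245%, 0.276%, 0.136% and 0.212%, and the corticotrope to melanotrope ratio 1.13 in females and 1.57 in males. In female and male melanotropes it was 0.0526% and 0.0154% as a mean over cells and 0.0484% and 0.0315% without the deepest cells, where the male ratio was 3.08. The female to male ratio in melanotropes was 1.81 with spanning UMIs as intron UMIs and 1.54 without the deepest cells. Per UMI of other genes the corticotrope to melanotrope ratio of introns reversed to 0.535 in females and was 1.65 in males. Per UMI of the type it was 0.927 in females, counted as reversed, but its interval of 0.604 to 1.39 includes 1. In males it was 3.25 on that scale. Both scales were added after the data were seen. *pomca* UMIs per 10000 summed over all other types were 23.0 in females and 35.9 in males. They were 15.4 and 26.3 without cells at 10% or more, 15.1 and 25.6 without cells at 5% or more, 18.2 and 29.5 without the deepest cells, 14.4 and 24.8 as a median over cells, 18.9 and 29.6 thinned, and 25.3 and 38.4 with exon plus spanning UMIs. Male cells with high *pomca* in other types numbered 11 at 5% and 2 at 20%, against 6 at 10%. Genes more than 2-fold higher and lower in melanotropes numbered 371 and 1515 of 3886 in females and 271 and 2695 of 5424 in males. They numbered 757 and 529, then 878 and 731, with the 7 hormone genes out of the totals, and 754 and 530, then 836 and 767, with *pomca* alone out. They numbered 176 and 976, then 127 and 1048, without the deepest cells, and 63 and 545, then 71 and 1268, at 30 UMIs or more. Both settings also lower the number of genes tested, which was not recorded for them. Their counts therefore cannot be read as shares beside the main ones. Past 3-fold the genes numbered 226 and 654, then 166 and 1302. Of the 10 genes most like *pomca*, 6 were kept by Spearman correlation and 4 with no filter on low genes.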
